A study of Mus musculus with 4 samples.

Results

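Fibro-adipogenic progenitors (FAPs) are the mesenchymal cells that lie between muscle fibres, and 10 genes that mark them were followed along the mouse tibialis anterior, the shin muscle that lifts the foot. The 10 genes were Dcn, Lum, Dpt, Mfap5, Smoc2, Pdgfra, Cxcl14, Pi16, Gsn and Abca8a, taken by gene symbol out of 28989 genes in the deposited tables, with entries that name several genes left out. Muscle 1, muscle 2, muscle 3 and muscle 4 form a single group of tibialis anterior muscle, and the labels give no treatment, genotype, strain, sex or age and make no statement on how many animals gave them. P-values therefore rest on how differences vary among these samples, which may be technical, and on a spread shared across genes. Each muscle was cut into cryosections along 1 axis, and the RNA of every section was counted under its own barcode at transcript 3' ends (TOMO-seq with CEL-Seq2 primers). The authors kept 37, 45, 46 and 43 sections of muscles 1 to 4, 171 in all, and the 25 barcodes numbered just above the last kept one of each muscle were read as well. The labels do not give the direction of sectioning, so the first end means the low barcode numbers.

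FAPs are recognised by the receptor PDGFRα, encoded by Pdgfra, and they produce much of the interstitial matrix of skeletal muscle, signal to muscle stem cells during repair and can turn into fibroblasts or adipocytes. Most of the 10 genes encode what these cells secrete: the small leucine-rich proteoglycans decorin (Dcn) and lumican (Lum), which bind collagen fibrils, dermatopontin (Dpt), which binds decorin and collagen, the microfibril glycoprotein Mfap5 and the calcium-binding matricellular protein Smoc2. Cxcl14 is a chemokine, Pi16 encodes peptidase inhibitor 16 and marks a progenitor-like state of fibroblasts, Gsn encodes the actin-severing protein gelsolin, which has a cytoplasmic and a secreted form, and Abca8a encodes a membrane transporter of the ABCA family. Several of these transcripts, Dcn, Lum and Gsn among them, are also made by tenocytes and other fibroblasts. In bulk sections, fewer cells of a type and less RNA per cell cannot be told apart.

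Promoter sequences are shown for Cxcl14, Abca8a and Gsn, which passed the test of ends against middle and have an entry in the RefSeq promoter table (GRCm38.p6). The table holds 6 of the 10 genes. The sequences run 5′ to 3′ on the strand of the gene and stop before the first annotated exon. Capitals mark matches, on either strand, to the CCAAT box (CCAAT), the GC box (GGGCGG) or the binding motif of TEAD factors (GGAATG).
Cxcl14, chr13:56296552-56296801, minus strand: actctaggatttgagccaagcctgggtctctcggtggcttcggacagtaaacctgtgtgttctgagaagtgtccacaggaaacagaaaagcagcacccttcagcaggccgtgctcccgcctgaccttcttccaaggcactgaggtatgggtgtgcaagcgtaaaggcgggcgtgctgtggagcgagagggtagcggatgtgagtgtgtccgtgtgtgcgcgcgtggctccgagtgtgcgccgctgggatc
Abca8a, chr11:110095979-110096187, minus strand: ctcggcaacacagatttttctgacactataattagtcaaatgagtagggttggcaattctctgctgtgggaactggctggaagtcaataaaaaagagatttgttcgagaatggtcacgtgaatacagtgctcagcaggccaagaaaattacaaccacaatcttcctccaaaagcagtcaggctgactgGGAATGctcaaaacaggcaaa
Gsn, first of 3 starts, chr2:35256109-35256358, plus strand: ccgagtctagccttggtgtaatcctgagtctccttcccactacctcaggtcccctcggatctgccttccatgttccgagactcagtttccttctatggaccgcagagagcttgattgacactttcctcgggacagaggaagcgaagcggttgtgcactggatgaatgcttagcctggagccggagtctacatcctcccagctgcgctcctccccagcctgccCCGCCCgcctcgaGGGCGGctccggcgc
Gsn, last of 3 starts, chr2:35282130-35282379, plus strand: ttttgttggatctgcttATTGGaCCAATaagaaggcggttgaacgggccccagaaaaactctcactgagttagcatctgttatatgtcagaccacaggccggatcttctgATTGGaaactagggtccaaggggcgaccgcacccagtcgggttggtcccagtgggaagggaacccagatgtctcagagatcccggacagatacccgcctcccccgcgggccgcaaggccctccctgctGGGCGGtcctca
The 250 bases before the start of Cxcl14 were 59.6% G and C with 16 CpG pairs and held none of these letters, nor TATAAA or the AP-1 motif TGANTCA. The same window of Abca8a was 43.2% G and C with 4 CpG pairs and held a single match, GGAATG beginning 62 bases before the start. The last Gsn start has 3 CCAAT matches and 1 GC box, the first has 2 GC boxes and no CCAAT. The middle Gsn start, whose sequence is not shown, has a CCAAT match and a GC box. Its window has 2 CpG pairs, against 15 for the first start and 12 for the last. Of the 32851 windows of this length in the table, 33.8% hold CCAAT, 32.7% GGGCGG, 12.6% GGAATG, 12.4% TATAAA and 6.75% TGANTCA. Counting at the 3' end does not tell the 3 Gsn starts apart, so all Gsn values below are sums over them.

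The kept sections held between 17114433 and 26989829 transcripts a muscle, and single kept sections between 86190 and 1159697. Levels are given as CPM, the counts of a gene per 1000000 transcripts assigned to a single gene, of which mitochondrially encoded ones made up 59.1% to 66.9%. Because each transcript is counted once at its 3' end, CPM does not scale with transcript length. Genes of muscle fibres gave 88734 to 99237 CPM summed over 10 markers, as the tissue label says, while 5 skin markers summed to 0.556 to 1.06 CPM. The barcodes of muscles 3 and 4 were not those of muscles 1 and 2, and an effect of the barcode set cannot be told apart from one of the muscles.

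Gsn and Dcn were by far the most abundant of the 10 transcripts, and Pdgfra, the receptor that defines FAPs, was among the scarcest. Over the kept sections Gsn averaged 209 ± 38.4 CPM and Dcn 139.8 ± 45.3 CPM (SD, n = 4), followed by Abca8a at 49.7 ± 21.8 and Cxcl14 at 20.25 ± 2.6996 CPM. This order held in 4 of 4 muscles. Smoc2 (15.5 ± 1.39 CPM) and Mfap5 (13.3 ± 3.40) came next and changed places in muscle 1. Dpt (6.89 ± 1.56 CPM), Pdgfra (5.92 ± 1.19) and Lum (5.41 ± 0.856) overlapped among muscles. Pi16 was rarest at 1.43 ± 0.643 CPM, with 119 counts over all kept sections and no count in 98 of the 171, and it did not pass the filter on low counts, so 9 of the 10 genes were tested. Dcn and Gsn alone gave 64.1% to 79.8% of the counts of the 10 genes in the kept sections.

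Abca8a separated the muscles. Its level over the kept sections was 58.6 and 76.4 CPM in muscles 3 and 4, against 30.7 and 33.3 CPM in muscles 1 and 2, a ratio of 2.11 between the means. The pairs did not overlap. Of 2762 genes with at least 10 CPM in every muscle, 1.88% had a ratio at least as large, while 23.7% were higher and 40.5% lower in muscles 3 and 4 without overlap. Dcn ran the other way, at 126 and 84.98 CPM in muscles 3 and 4 and 191.7 and 156 CPM in muscles 1 and 2, as did Gsn (197.9 and 159.6 CPM, against 244 and 234 CPM) and Cxcl14 (17.5 and 18.4 CPM, against 22.8 and 22.4 CPM). Pi16 was lower in muscles 3 and 4 as well, without overlap, on few counts. Lum, Dpt, Mfap5, Smoc2 and Pdgfra overlapped between the pairs. Lower levels in muscles 3 and 4 without overlap were common among all genes, at the 40.5% above. Mitochondrially encoded transcripts, which count in the CPM total, made up 59.1% and 60.9% in muscles 1 and 2, against 64.1% and 66.9% in muscles 3 and 4. Their part in these differences was not tested. With 2 muscles in each barcode set, an exact permutation test cannot go below a two-sided p of 0.333.

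To ask where along the muscle these genes are expressed, the kept stretch of every muscle was cut into 5 equal zones by barcode number. The 9 tested genes were all lower at the ends than in the middle in the fit, and 5 of them passed the test: Cxcl14, Abca8a, Dcn, Mfap5 and Gsn. Over all 9317 genes tested, 1.44% passed, 0.826% of all as lower at the ends and 0.612% as higher. The median difference of the 9 genes was -0.46 on the log2 scale, and that of all genes was -0.0057. The fit drew the spread of a gene largely from all genes (a prior weight of 47.1 degrees of freedom). A gene whose difference varies more among muscles therefore gets too small an SE and p in the tests of zones.

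**Figure D1:**
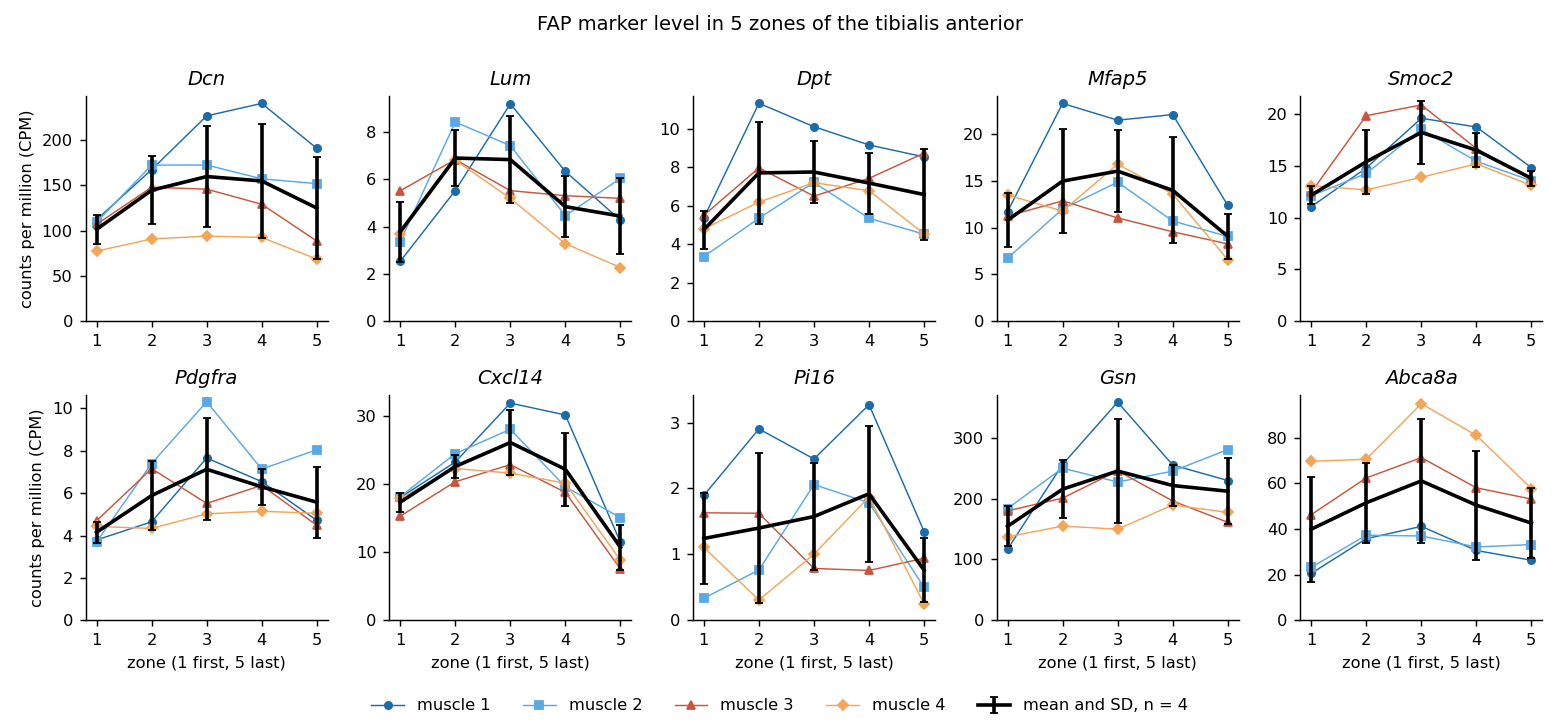
Level of each of the 10 genes, in CPM (vertical axis), in zones 1 to 5 of the kept stretch (horizontal axis). Coloured lines are the 4 muscles and the black line is their mean with SD. Cxcl14 averaged 26.1 CPM in zone 3 and 10.7 CPM in zone 5, and Abca8a in zone 3 was highest in muscle 4 at 94.9 CPM and lowest in muscle 2 at 36.96 CPM.

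Cxcl14, the chemokine, showed the largest fall of the 9. The mean of its levels at both ends was 14.7, 16.6, 11.4 and 13.4 CPM in muscles 1 to 4, against 31.9, 28.1, 22.9 and 21.6 CPM in the middle zone. The groups did not overlap, and the fitted log2 difference was -0.87 ± 0.11 (SE, edgeR adjusted p = 2.34e-07), lower at the ends in 4 of 4 muscles. It kept its call within muscles 3 and 4 (-0.91, edgeR adjusted p = 0.000457) and within muscles 1 and 2 (-0.83, edgeR adjusted p = 0.00133).

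Abca8a, the transporter, had 23.5, 28.2, 49.7 and 63.7 CPM at the ends of muscles 1 to 4, against 41.2, 36.96, 71.2 and 94.9 CPM in the middle. The levels at the ends and in the middle overlapped between muscles, and within each of the 4 muscles the ends were lower (log2 difference -0.51 ± 0.077, edgeR adjusted p = 1.01e-05). The differences of the single muscles ran from -0.82 to -0.41. Within muscles 1 and 2 alone the call was lost (-0.48, edgeR adjusted p = 0.0817).

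Dcn, the collagen-binding proteoglycan, had 152, 131, 97.8 and 73.03 CPM at the ends and 227, 173, 146 and 94.01 CPM in the middle of muscles 1 to 4. The ends were lower in 4 of 4 muscles, by -0.63 to -0.37 on the log2 scale (fit -0.41 ± 0.076, edgeR adjusted p = 0.000392). Within muscles 3 and 4 alone Dcn passed (-0.48, edgeR adjusted p = 0.00302), and within muscles 1 and 2 alone it did not (-0.37, edgeR adjusted p = 0.0538). Mfap5, which binds fibrillin microfibrils, had 12.03, 7.89, 9.74 and 10.02 CPM at the ends, against 21.5, 14.8, 11.03 and 16.8 CPM in the middle. Muscle 3 stood apart with a difference of -0.20, while the other 3 muscles lay between -0.93 and -0.83 (fit -0.59 ± 0.13, edgeR adjusted p = 0.00475, 0.0921 without muscle 2). Neither muscles 3 and 4 alone (-0.51, edgeR adjusted p = 0.236) nor muscles 1 and 2 alone (-0.74, edgeR adjusted p = 0.0538) gave a call for Mfap5.

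Gsn passed by little and rested on muscles 1 and 3. Its ends had 173, 232, 170.4 and 157 CPM in muscles 1 to 4, against 358, 227, 245 and 149.7 CPM in the middle. The log2 differences were -1.13 in muscle 1, -0.53 in muscle 3, -0.0015 in muscle 2 and 0.058 in muscle 4 (fit -0.33 ± 0.090, edgeR adjusted p = 0.0453). Without muscle 1 the adjusted p was 0.545, without muscle 3 it was 0.479, and with robust estimation of the spread of each gene it was 0.422.

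The 4 other tested genes were below 0 without passing. Smoc2 had 12.9, 12.8, 13.1 and 13.1 CPM at the ends and 19.6, 18.6, 20.9 and 13.9 CPM in the middle of muscles 1 to 4. Its groups did not overlap (log2 difference -0.40 ± 0.11, edgeR adjusted p = 0.0515), and without muscle 4 it passed (-0.55, edgeR adjusted p = 0.0106). Lum was at -0.61 ± 0.19 (edgeR adjusted p = 0.0880), Pdgfra at -0.46 ± 0.17 (edgeR adjusted p = 0.205) and Dpt at -0.36 ± 0.16 (edgeR adjusted p = 0.348). These 3 had between 461 and 593 counts over all kept sections. Pi16, untested, had 1.00 ± 0.550 CPM at the ends and 1.57 ± 0.805 CPM in the middle (SD, n = 4).

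**Figure D2:**
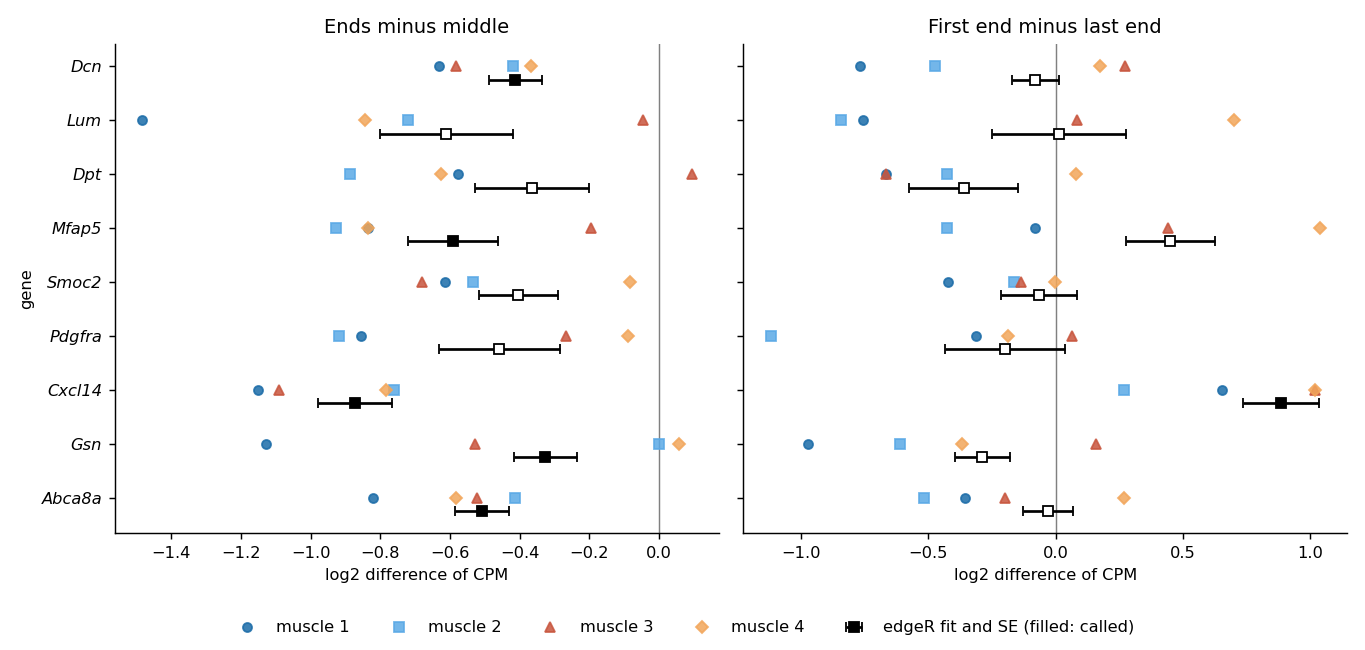
Log2 difference of CPM (horizontal axis) for the 9 tested genes (vertical axis), ends minus middle at left and first end minus last end at right. Coloured symbols are single muscles and squares are the edgeR fit with its SE, filled where the adjusted p was under 0.05. All 4 muscles of Cxcl14 lie below 0 at left and above 0 at right.

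Each end was then set against the middle on its own. At the first end Abca8a (-0.52 ± 0.091, edgeR adjusted p = 0.000535), Dcn (-0.45 ± 0.089, edgeR adjusted p = 0.00321) and Gsn (-0.47 ± 0.11, edgeR adjusted p = 0.0156) were lower, 3 of 9, where 0.451% of all genes were called, 0.290% as lower. At the last end 4 of 9 were lower, where 3.22% of all genes were called, 1.74% as lower and 1.48% as higher: Cxcl14 (-1.32 ± 0.14, edgeR adjusted p = 2.51e-10), Mfap5 (-0.82 ± 0.16, edgeR adjusted p = 0.000525), Abca8a and Dcn (-0.37 ± 0.089, edgeR adjusted p = 0.00658). Cxcl14 at the first end was at -0.43 ± 0.12 (edgeR adjusted p = 0.0887). The differences of Gsn at the first end were -1.62, -0.31, -0.45 and -0.13 in muscles 1 to 4, so muscle 1 weighed most. No alternative was run for the tests of each end on its own.

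The ends were also compared with each other. Cxcl14 was higher at the first end than at the last, with 18.035, 18.2, 15.3 and 17.9 CPM in zone 1 of muscles 1 to 4, against 11.46, 15.1, 7.55 and 8.83 CPM in zone 5. The zones did not overlap, and the log2 difference was 0.89 ± 0.15 (edgeR adjusted p = 5.22e-05), positive in 4 of 4 muscles. It was the only one of the 9 to pass, where 3.17% of all genes did, 2.03% as higher at the first end and 1.14% as lower. With 10 zones in place of 5 it did not pass (0.86, edgeR adjusted p = 0.0539). Mfap5 was at 0.45 ± 0.18 (edgeR adjusted p = 0.180) and Gsn at -0.29 ± 0.11 (edgeR adjusted p = 0.160). For any difference among the 5 zones the same 5 genes passed as for the ends, with adjusted p from 6.28e-10 for Cxcl14 to 0.0193 for Gsn in edgeR, against 4.02% of all genes called.

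Other gene lists give the setting. Of 20 further genes used for FAPs, 17 were tested at the ends and 1 was lower, the basement membrane collagen Col15a1 (-0.64 ± 0.11, edgeR adjusted p = 0.000145). In that list 13 of the 17 were below 0, with a median of -0.24. None of 6 other small leucine-rich proteoglycans, 8 genes of microfibrils and elastic fibres or 4 PDGF ligands and receptors passed at the ends. Pdgfa, which encodes a ligand of the Pdgfra receptor, was at 0.27 ± 0.12 (edgeR adjusted p = 0.378). Of 8 fibrillar and type VI collagen genes 1 was lower, Col6a2 (-0.48 ± 0.085, edgeR adjusted p = 0.000267).

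Markers of other cells moved along the same axis. Among Schwann cell markers, the myelin genes Mbp (-1.04) and Pmp22 (-0.65) and the transcription factor Sox10 (-0.93) were lower at the ends. Of 6 tenocyte markers tested, Chad (1.01) and Prg4 (0.55) were higher in the mean of both ends. So were both adipocyte markers tested, Adipoq (1.94) and Cfd (1.60). For Chad and Prg4 the first end was lower than the last (-2.59 and -2.12). The 5 adipocyte markers listed had only 10, 18, 12 and 3 counts in zone 3 of muscles 1 to 4. They summed to 2.84, 14.1, 3.06 and 4.24 CPM in zone 1, 11.2, 14.6, 3.06 and 1.76 CPM in zone 5 and 3.06, 3.71, 2.36 and 0.502 CPM in zone 3. All 5 macrophage markers tested were below 0 at the ends (-0.67 to -0.56, median -0.63), and 1 of them passed, the complement gene C1qb (-0.60, edgeR adjusted p = 0.0146). The 8 macrophage markers listed summed to 19.6 to 30.3 CPM in zone 1 and 26.7 to 42.7 CPM in zone 5, against 31.9 to 58.6 CPM in zone 3. Single genes were lower among endothelial (1 of 9, Flt1, list median -0.069) and muscle fibre markers (1 of 10, Myh2, list median 0.13), and none of 8 smooth muscle and pericyte, 5 erythrocyte, 1 satellite cell or 1 cartilage marker passed. The 11 tenocyte markers summed to 43.4 to 69.9 CPM in zone 1 and 80.1 to 209.8 CPM in zone 5, against 50.5 to 88.9 CPM in zone 3, with up to 2 of the 11 at 0 in a zone. Between the ends, Sox10 (1.57) and 5 of 5 erythrocyte genes (1.59 to 2.27) were higher at the first end, as were the smooth muscle genes Acta2 (0.58) and Myh11 (0.77), the endothelial receptor gene Kdr (0.78) and the muscle fibre myosin Myh1 (0.29). The tenocyte markers Fmod (-2.68), Chad (-2.59) and Prg4 (-2.12) were lower there, with Prelp (-0.73), the collagens Col1a1 (-0.67) and Col1a2 (-0.47) and the myosin Myh4 (-0.31). The 8 smooth muscle and pericyte markers summed to 313.5, 164, 187 and 313 CPM in zone 1 of muscles 1 to 4. In zone 5 they summed to 241, 233, 184 and 150 CPM, so muscle 2 went the other way and muscle 3 was nearly level. Of the 17 further FAP genes tested between the ends, Col15a1 (0.63 ± 0.15, edgeR adjusted p = 0.00557) was higher at the first end and Cygb (-0.47 ± 0.13, edgeR adjusted p = 0.0243) was lower, with a list median of -0.020. The part of these cells in the values of the FAP markers was not tested.

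Single sections varied around the zone means. Dcn and Gsn were counted in every one of the 171 sections, and Cxcl14 in all but 3. The variance of Gsn among sections was 6.47 to 18.5 times what counting error gives, that of Dcn 3.18 to 8.62 times, that of Abca8a 1.495 to 3.54 times and that of Cxcl14 1.35 to 3.35 times. For Lum and Pdgfra it was 0.885 to 1.22 and 0.541 to 1.27 times, near counting error alone. Single sections of Dcn ranged from 49.7 over a median of 186 to 276 CPM in muscle 1, from 59.7 over 154 to 244 CPM in muscle 2, from 41.7 over 115 to 189.5 CPM in muscle 3, and from 30.2 over 77.8 to 137 CPM in muscle 4. The highest section of Dcn lay between positions 0.326 and 0.725 of the kept length.

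**Figure D3:**
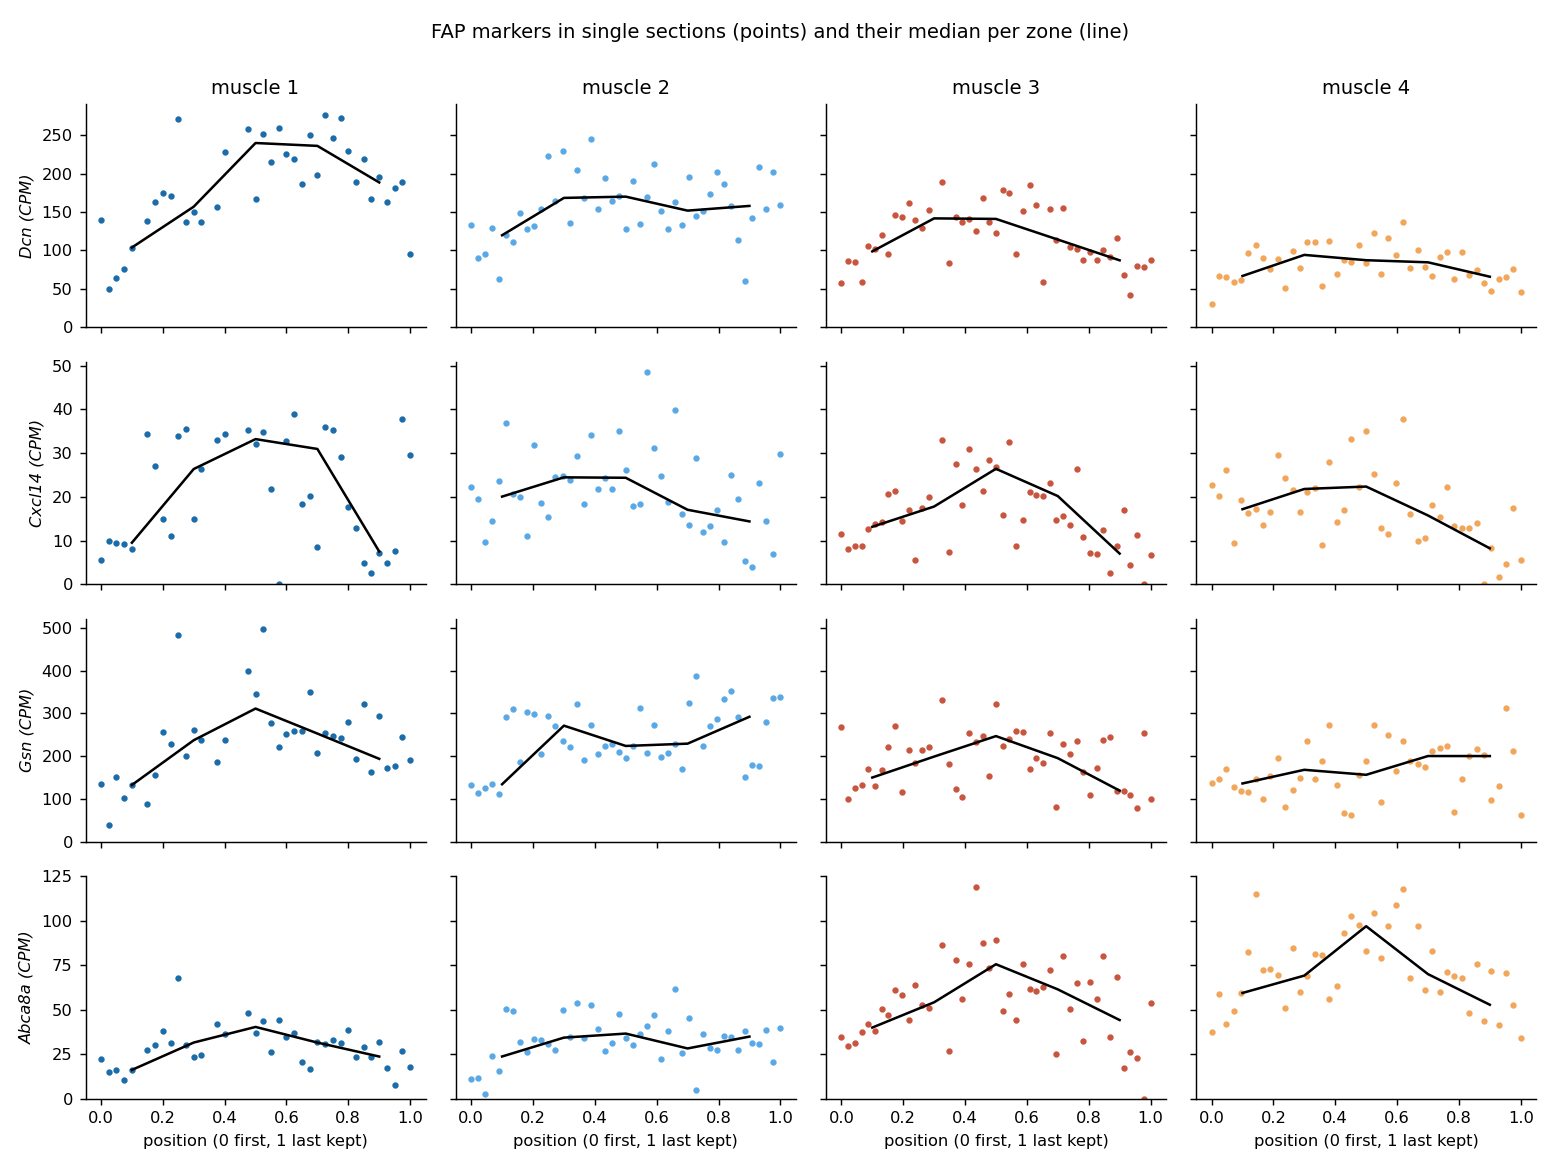
CPM of Dcn, Cxcl14, Gsn and Abca8a (rows) in single kept sections, by position along the muscle (horizontal axis, 0 first and 1 last kept section), with a column for each muscle. Points are sections and the black line joins the medians of the 5 zones. The sections of Abca8a with the highest value lay at positions 0.250, 0.659, 0.435 and 0.619 in muscles 1 to 4.

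Correlations among the 10 genes from section to section were above 0 on average and weak for most pairs. Over the kept sections of a muscle, the Pearson correlation of log2(CPM + 1), averaged over the 4 muscles, was above 0 for 45 of 45 pairs, with a median of 0.26. It was highest for Dcn with Abca8a (0.54) and Dcn with Gsn (0.52) and lowest at 0.067. Against the mean z-score of the other 9, Dcn was at 0.68, Mfap5 at 0.59 and Abca8a at 0.57. Gsn (0.37), Pdgfra (0.34) and Pi16 (0.27) were lowest. Sections share their library and depth with all genes counted in them, and the mean z-score of the 10 had a correlation of 0.31 to 0.69 with the log2 number of transcripts of the section. How many pairs of other genes were above 0 was not computed, and the median of 2756 other genes with that score was 0.23.

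Among 2756 other genes with at least 10 CPM in every muscle, Col3a1 was most like the FAP markers, with an average correlation of 0.68 to their mean z-score over the kept sections of the 4 muscles. It encodes the fibrillar collagen type III of interstitial matrix. The next were Ybx1 (0.61), Ptma (0.60), Atp5g3 (0.57), Atp5b (0.57), Myh2 (0.57), Myh1 (0.57), Lpl (0.56), Gnai2 (0.54) and Pitpnc1 (0.54). The median over all 2756 genes was 0.23. Myh2 and Myh1 encode myosin heavy chains of fast fibres, and Lpl encodes lipoprotein lipase.

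The barcodes numbered beyond the last kept section were sparse and held another mix of the 10 genes. They gave 333165, 356160, 552135 and 382213 transcripts in muscles 1 to 4, and single barcodes gave 1206 to 102329. Relative to the kept sections Gsn was higher, Cxcl14 and Abca8a were lower, and Dcn was higher in 3 of 4 muscles. In barcodes that no comparison used, Cxcl14 averaged 8.03 and Abca8a 26.6 CPM, on 10 and 25 counts, near their 7.13 and 28.9 CPM beyond. The low levels of both were thus not particular to the barcodes beyond. Dcn and Gsn averaged 78.8 and 119.85 CPM in the unused barcodes, against 383 and 395 CPM beyond. In all 4 of 9 tested genes passed, 2 in each direction, where 6.94% of 10191 genes did, 5.16% as lower and 1.78% as higher. The median of all genes was -0.21, and with RLE scaling in place of TMM the split of all genes was 226 higher and 153 lower in place of 181 and 526, and that of the 9 genes was 2 higher and 1 lower. This fit gave all genes the same spread, so a gene that varies more among muscles gets too small a p.

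Gsn had 493, 504, 338 and 246 CPM beyond the last kept section of muscles 1 to 4, against 244, 234, 197.9 and 159.6 CPM in the kept sections. It rested on 164, 180, 187 and 94 counts beyond. The beyond and kept groups did not overlap, and the log2 difference was 0.85 ± 0.12, or 1.07 above the median of all genes (edgeR adjusted p = 1.61e-10). It was not called over barcodes 6 to 25 alone (0.80, edgeR adjusted p = 0.0777).

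Dcn had 698, 264, 507 and 62.8 CPM beyond, from 232, 94, 280 and 24 counts, against 191.7, 156, 126 and 84.98 CPM in the kept sections. Muscle 4 was not higher, with a ratio of 0.739 (exact 95% interval 0.472 to 1.10, counting error only), while the ratios of muscles 1 to 3 were 3.63, 1.69 and 4.02. The fitted log2 difference was 1.25 ± 0.13 (edgeR adjusted p = 2.92e-20). The call was lost in settings that let the spread differ among genes, at adjusted p = 0.468 in edgeR with robust estimation and 0.388 in DESeq2. It was also lost with 10 barcodes in place of 25 (0.47, edgeR adjusted p = 0.0724).

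Cxcl14 had 6.00, 5.62, 9.06 and 7.85 CPM beyond, from only 2, 2, 5 and 3 counts, against 22.8, 22.4, 17.5 and 18.4 CPM in the kept sections. It was lower in 4 of 4 muscles (log2 difference -1.46 ± 0.37, edgeR adjusted p = 0.00306). Against zone 5 in place of all kept sections, where Cxcl14 averaged 10.7 CPM, the difference was -0.20 (edgeR adjusted p = 0.882). The call was also lost in DESeq2 (adjusted p = 0.176), over barcodes 6 to 25 alone, and within muscles 3 and 4 (-1.05, edgeR adjusted p = 0.393) or muscles 1 and 2 (-2.06, edgeR adjusted p = 0.0696). Abca8a had 24.01, 28.1, 21.7 and 41.9 CPM beyond, from 8, 10, 12 and 16 counts, against 30.7, 33.3, 58.6 and 76.4 CPM (log2 difference -0.86 ± 0.22, edgeR adjusted p = 0.00316). Its call was lost without muscle 3 (-0.71, edgeR adjusted p = 0.0987) or muscle 4 (-0.75, edgeR adjusted p = 0.0921), with RLE scaling (-0.67, edgeR adjusted p = 0.0587) and against zone 5 (-0.35, edgeR adjusted p = 0.491).

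The remaining genes had few counts there. Smoc2 had 4, 4, 3 and 1 counts beyond in muscles 1 to 4 (log2 difference -1.09 ± 0.39, edgeR adjusted p = 0.0705), lower in 4 of 4 muscles. Mfap5 had 18 counts in all, Dpt 15, Pdgfra 10 and Lum 7, and none of these passed. Pi16 had 0 counts among 1623673 transcripts, which allows up to 1.85 CPM (3 counts), above its 1.43 CPM in the kept sections, so a difference was not detectable at this depth. Dcn and Gsn together made up 80.8% to 94.7% of the counts of the 10 genes beyond the last kept section.

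**Figure D4:**
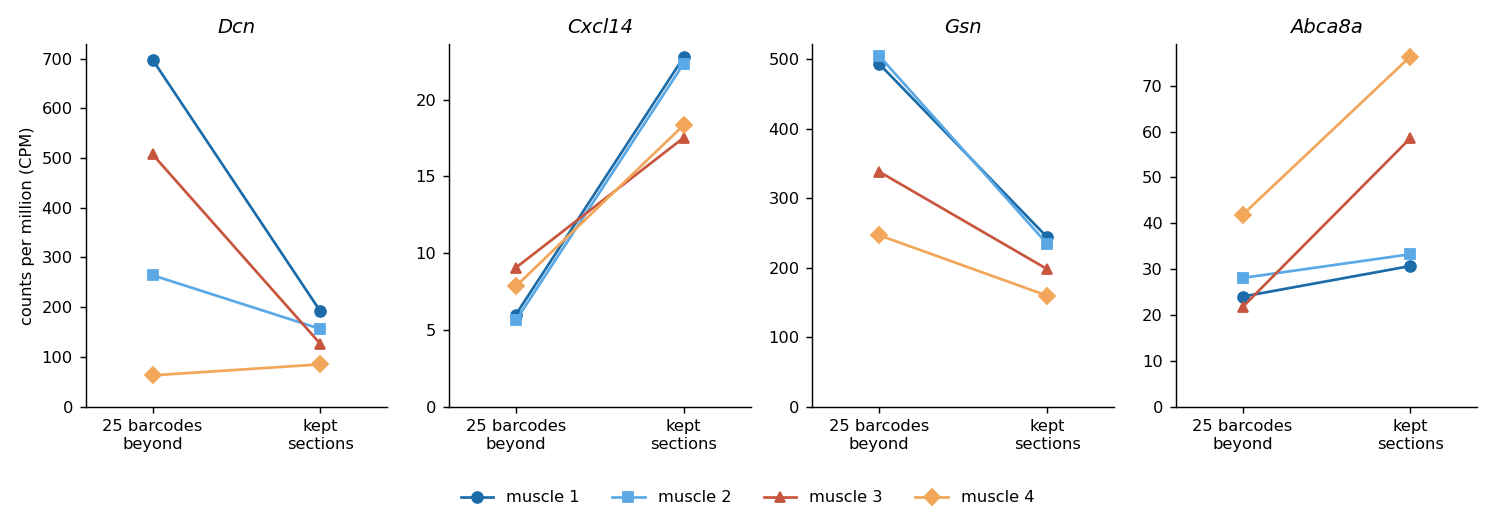
CPM (vertical axis) of Dcn, Cxcl14, Gsn and Abca8a in the 25 barcodes beyond the last kept section (left point of each line) and in the kept sections (right point), with a line for each muscle. Gsn falls from left to right in all 4 lines and Cxcl14 and Abca8a rise, while the Dcn line of muscle 4 is nearly level at 62.8 and 84.98 CPM.

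The Dcn counts beyond the last kept section lay in runs of neighbouring barcodes, and in muscles 1 to 3 tenocyte genes were high in the same or neighbouring blocks of 5 barcodes. In muscle 1 Dcn was present in barcodes 1 to 17 beyond and reached 1951 CPM in barcodes 11 to 15, with Gsn at 1299.8 CPM and the 11 tenocyte markers at 5938 CPM. In muscle 3 it stayed at 66.6 CPM in barcodes 1 to 5 and reached 2581 CPM in barcodes 16 to 20, with Gsn at 1324 and the tenocyte markers at 5508 CPM. Barcodes 18 and 19 of that muscle alone held 82 and 93 of its Dcn counts. In muscle 2 the highest Dcn value was 506 CPM in barcodes 6 to 10, where the tenocyte markers were at 1247 CPM. Gsn did not peak with them in muscle 2, at 371 CPM in that block and 819 CPM in barcodes 1 to 5. Muscle 4 had 23 of its 24 Dcn counts in barcodes 1 to 5, and there the tenocyte markers were at 329.9 CPM, while their highest value was 719 CPM in barcodes 6 to 10, on 15 counts. Gsn in muscle 4 was also highest in barcodes 6 to 10, at 960 CPM on 20 counts, where Dcn had 1 count.

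**Figure D5:**
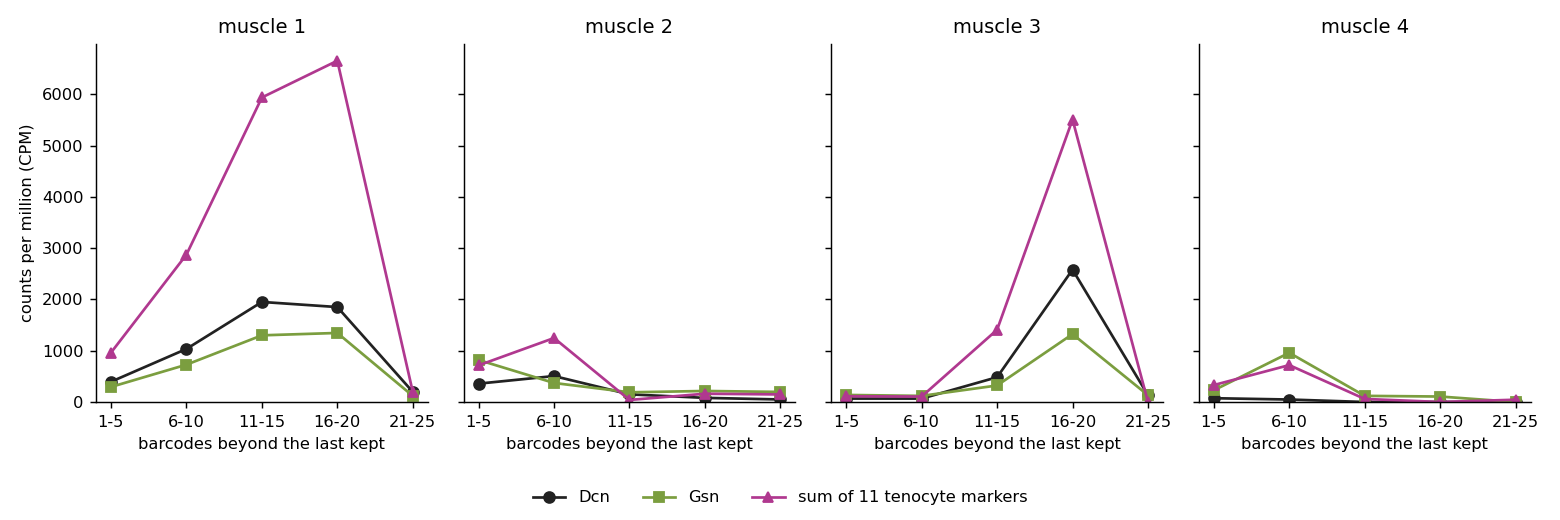
CPM (vertical axis) of Dcn, Gsn and the sum of 11 tenocyte markers in blocks of 5 barcodes beyond the last kept section (horizontal axis), with a panel for each muscle. Dcn and the tenocyte sum are highest in the same block in muscles 2 and 3 and in neighbouring blocks in muscles 1 and 4, at 2581 and 5508 CPM in barcodes 16 to 20 of muscle 3.

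Summed over all 25 barcodes, the 11 tenocyte markers reached 1937, 478, 1082 and 314 CPM in muscles 1 to 4, against 119, 68.1, 65.99 and 57.5 CPM in the kept sections, with at most 3 of the 11 at 0 beyond. Of the 10 tenocyte markers tested 9 were higher beyond, led by Chad (5.64) and Comp (4.32), proteins of tendon and cartilage matrix, and by the proteoglycan Fmod (4.14). All 5 adipocyte markers were higher as well (4.57 to 5.38), with sums of 48.03, 363, 59.8 and 198.9 CPM beyond, against 5.602, 9.47, 2.96 and 1.88 CPM. Among the 18 further FAP genes tested, Pcolce2 (2.16) and Serpinf1 (2.12) were higher and none was lower. Of the collagen genes Col1a1 (2.44) and Col1a2 (2.17) were higher, of the small leucine-rich proteoglycans Prelp (2.75) and Kera (3.40) besides Fmod (Fmod and Kera stand in the tenocyte list too), and of the microfibril genes Fbln1 (3.001). Muscle fibre genes gave 91642, 84220, 63803 and 83412 CPM beyond, against 99237, 95268, 88734 and 97371 CPM, and 4 of the 10 were lower. Of 5 erythrocyte genes 4 were lower beyond (-1.91 to -1.32), with sums of 1127, 919.6, 306 and 325 CPM beyond, against 2759, 2766, 1067 and 1722 CPM in the kept sections. The endothelial gene Flt1 was lower too (-0.67, edgeR adjusted p = 0.0348), 1 of 10 in its list. No marker passed beyond among 8 smooth muscle and pericyte, 5 macrophage or 4 PDGF genes. The part of these cells in the values of the FAP markers beyond the last kept section was not tested.

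Dcn lies on chromosome 10 at 97479609 to 97518143 (GRCm38), Cxcl14 on chromosome 13 at 56288643 to 56296551, Gsn on chromosome 2 at 35256380 to 35307892, Abca8a on chromosome 11 at 110025634 to 110095978 and Mfap5 on chromosome 6 at 122505845 to 122529290. Dpt, Smoc2, Pdgfra and Pi16 overlap annotated genes on the opposite strand, and since the use of strand in counting is not given, their counts can include those transcripts. Gsn overlaps the annotated gene Gm43128 on its own strand. Dcn, Lum, Mfap5, Cxcl14 and Abca8a overlap no other annotated gene.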

How the data were processed

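RNA of cryosections from 4 mouse tibialis anterior muscles was primed with barcoded CEL-Seq2 primers, per the labels' protocols, and the submitters' processing notes name STAR 2.7.7a and the build GRCm38. Which program counted the reads, and whether by strand, is not given in the sources used here. For each muscle the authors deposited estimated counts for 96 barcodes. From the values, these are whole numbers of unique molecular identifiers corrected for repeats among 4096 possible ones (100% of values within 0.001). The authors also deposited a filtered table of normalized signal, used only to learn which sections they kept. Entries naming several genes (0.580% to 0.930% of counts) were left out. Counts were summed per muscle and zone, or per muscle beyond and in the kept sections, rounded, and tested by the quasi-likelihood F-test of edgeR 4.0.16 under R 4.3.3 (TMM, filterByExpr, Benjamini-Hochberg over all genes tested, threshold 0.05) with muscle as a block, since the sums of a muscle come from the same tissue. The SE was derived from the F statistic. The biological coefficient of variation was 7.04% for zones and 11.6% for the barcodes beyond. Alternatives used DESeq2 1.42.0 and limma 3.58.1 and are given in the closing section. The fits were also run on simulated data in which all genes had the same spread and muscles differed only in depth. Such data cannot show how the fits treat genes that vary more among muscles. Names and coordinates came from GENCODE M21 (28895 of 28989 genes matched), promoters from RefSeq. All 10 members are named, besides the 10 other genes most like them and examples of the called genes of 16 other marker lists; 1 marker of another cell type is not reported here. Genes, lists and tests were chosen with earlier results of these data known. Intervals and floors cover counting error only.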

Additional observations from a re-analysis of the deposited data

Results flagged for a closer look

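The log2 difference of Mfap5 between ends and middle was -0.20 in muscle 3, and the other 3 muscles lay between -0.93 and -0.83, so muscle 3 stood apart from the group. The log2 difference of Pdgfra between the barcodes beyond the last kept section and the kept sections was -0.88 in muscle 4, on 1 count beyond, and the other 3 muscles lay between 0.13 and 0.32. Levels and differences of the 10 genes over the 4 muscles gave 50 such groups, of which chance alone flags about 1 in 20.

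Some barcodes were used in no comparison: those before the kept sections, skipped among them or more than 25 above the last kept one. They held counts of 7 of the genes above the limit that a count of 0 allows. Over the 4 muscles these were 142 counts of Gsn, 92 of Dcn, 25 of Abca8a, 11 of Mfap5, 10 of Cxcl14, 9 of Smoc2 and 8 of Dpt. Those barcodes gave 138040 to 377610 transcripts a muscle.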

How the results depend on the processing

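Each result, apart from the tests of each end on its own, was recomputed under 16 to 19 alternatives. Of these, the zones by order of kept sections and the robust spread were chosen after seeing the data. Of 661 values of single genes, 550 kept direction and call, 57 lost the call, 24 gained it and 30 changed direction. Ends against middle, 5 of the FAP markers passed, against 3 in DESeq2 (where 7045 of 9317 genes had no adjusted p), 1 in muscles 1 and 2 alone, 3 in muscles 3 and 4 alone, 9 with 10 zones, 8 with equal section weights in limma, and 4 to 6 without 1 muscle. Between the ends 1 passed, against 0 with 10 zones and 1 to 2 without 1 muscle. For any difference among zones 5 passed, against 3 in DESeq2 and 3 in muscles 3 and 4 alone. Beyond the last kept section 4 passed, against 1 in DESeq2, 2 in muscles 1 and 2 alone, 2 in thinned sums, 2 against zone 5, 1 over barcodes 6 to 25, and 3 to 4 without 1 muscle. With equal weights in limma 9 passed there, all as lower, where the median of all genes was -1.88. Muscle is the replicate block here, since the sums of a muscle share its tissue. With no replicate block 0 passed at the ends, 0 between the ends, 0 among zones and 0 beyond.

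Direction changed in these values, all log2 differences. First against last end, Dcn was 0.20 in muscles 3 and 4 alone, and -0.21 to 0.12 without 1 muscle. Lum was -0.46 in muscles 1 and 2 alone, -0.023 with no replicate block, -0.049 in thinned sums, -0.14 in limma, and -0.13 to 0.12 (0.115) without 1 muscle. Smoc2 was 0.17 with 10 zones and 0.19 in limma. Abca8a was 0.016 in muscles 3 and 4 alone, 0.0056 with no replicate block, 0.062 with 3 zones, 0.012 with zones by order, and -0.14 to 0.026 without 1 muscle. Beyond against kept, equal weights in limma gave -1.77 for Dcn, -1.87 for Dpt, -1.84 for Pdgfra and -1.60 for Gsn, with a median of all genes of -1.88. These 4 values passed the test as lower, against the direction of the main fit. In that setting shallow barcodes weigh as much as deep ones. Muscles 3 and 4 alone gave 0.59 for Lum and -0.022 for Dpt. Mfap5 was 0.57 against zone 5, and Pdgfra was -0.17 (-0.165) with no filter and -1.27 over 10 barcodes. Without 1 muscle, Lum ranged over -1.61 to 0.056, Dpt -0.047 to 0.63, Mfap5 -0.56 (-0.555) to 0.012 and Pdgfra -0.21 to 0.22. The causes of the changes in direction were not tested. Over all genes, the number called ranged over 0 to 332 at the ends, 1 to 351 between the ends, 4 to 429 among zones and 44 to 10090 beyond. The kept sections held 461 to 593 counts of Lum, Pdgfra and Dpt, and the barcodes beyond held 0 to 46 counts of each gene other than Dcn and Gsn, so these values carry the most counting error.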
